A study of Mus musculus with 8 samples.

Results

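A set of 10 genes that mark macrophages of the joint lining was followed across 8 mouse knee libraries. These are 10 of the 20681 rows of the deposited table, taken by gene name alone: 7 markers of resident macrophages (Cx3cr1, Trem2, Vsig4, Timd4, Folr2, Mrc1 and Cd163) and 3 general macrophage markers (Cd68, Adgre1 and Csf1r). Each name matched 1 row. A total of 9 genes reached the level needed for testing, a normalised read count of at least 10 in at least 4 libraries, and Timd4 did not.

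The libraries were poly-A RNA from whole knees, 4 labelled control and 4 labelled knockout for Loxl2, which encodes a collagen-crosslinking enzyme. The series gives the mice of all 8 samples as Acan-Cre;Loxl2 fl/fl, that is, with both Loxl2 alleles floxed and a Cre recombinase driven by Acan, a gene of cartilage, while the library names give LOXL2wt for the controls and LOXL2ko for the others. The controls are described as vehicle-treated and the others as conditional knockouts, with no agent named. Macrophages are not the cells that Acan marks. All 8 library names carry DMM, which is not spelled out there, and the title of the series names a post-traumatic injury. Age, sex and time after injury were not given in the sources used here. The sources do not say outright that each library came from its own mouse, so the p-values measure the spread between these libraries, which may be technical.

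The libraries held 13991000 to 17411617 reads assigned to genes. Loxl2 itself ran against the label, at 282 to 1135 normalised reads in the controls and 893 to 1518 in the libraries labelled knockout (log2 difference 1.44, SE 0.40, limma adjusted p = 0.0294), so each group is named here only by its label. Cartilage markers were present: Col2a1 had 146 to 2721 in the controls and 658 to 1528 in the libraries labelled knockout, Acan had 52.3 to 544 and 184 to 372, and 0 of 6 cartilage genes were called by limma (1 at an unadjusted p under 0.05, 0 by edgeR and 1 by DESeq2). Muscle RNA moved with the groups: 16 skeletal muscle genes held 15.6% to 15.9% of the summed values in the controls and 9.45% to 12.7% in the libraries labelled knockout. A fit with a muscle score as a covariate is given below, but the muscle share did not overlap between the groups. The part of that shift in the results therefore cannot be told apart from the group label.

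Macrophages of the synovium, the soft tissue that lines the joint cavity, include resident cells that live there for long periods and cells that arrive from blood monocytes. In mice, a layer of CX3CR1-positive macrophages carrying TREM2 and VSIG4 covers the lining, and macrophages carrying TIM4 (Timd4), FOLR2, CD206 (Mrc1) or CD163 lie in the tissue beneath and around vessels. Macrophages depend on CSF1R, the receptor for the growth factors CSF1 and IL-34. These genes are not private to the synovium: macrophages of muscle, fat pad and bone marrow use many of them, and osteoclasts share Csf1r and Cd68. The whole knee does not say which tissue a transcript came from, and in bulk RNA more cells of a type and more RNA per cell cannot be told apart.

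All 3 general markers and 2 of the 6 tested resident markers, Trem2 and Mrc1, rose in the libraries labelled knockout, each by a factor of 2.73 to 3.26. The other 4 tested resident markers, Cx3cr1, Vsig4, Folr2 and Cd163, did not pass the test. All 5 calls were in that direction, against a background of 11.6% of the 14949 tested genes called higher, and the groups of all 5 did not overlap, against 11.7% of tested genes. The median log2 difference of the 9 tested markers was 1.45, and that of all tested genes was 0.00. The count of called markers was 8 with DESeq2 (background 14.3% higher), 3 without knockout replicate 4 and 0 with the muscle score as a covariate (1 at an unadjusted p under 0.05), a fit that called 0 of all genes (709 at an unadjusted p under 0.05). Under a scaling that left out muscle, erythroid, neutrophil and the most abundant genes, the median of all genes moved to 0.15 and 2710 of 3490 calls were higher, against 1732 of 3461 in the values as deposited, and 7 markers were called.

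**Figure D1:**
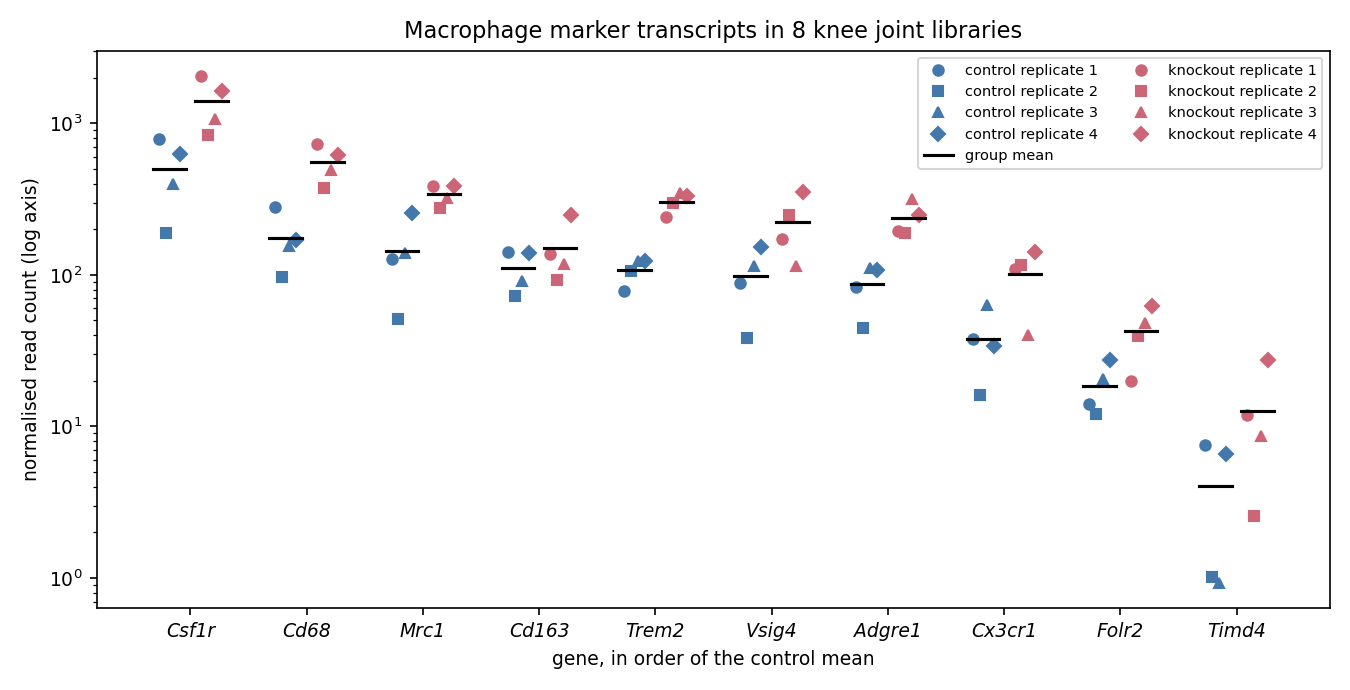
Normalised read counts (log axis) of the 10 macrophage markers in each of the 8 libraries; symbols give the replicate, colours the group label, and black lines the group means. The groups do not overlap for Csf1r, Cd68, Mrc1, Trem2 and Adgre1, and they overlap for the other 5 genes.

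Adgre1 encodes F4/80, the adhesion receptor used to identify mouse macrophages. It lies on chromosome 17, from 57358691 to 57483527 in mm10, and no other annotated gene overlaps it. Its normalised read count was 83.3, 44.4, 111 and 108 in the control libraries, in the order of their numbers, against 194, 188, 316 and 247 in those labelled knockout. Every library labelled knockout lay above every control library, and knockout replicate 3 was the highest of the 8. The mean went from 86.8 ± 31.0 to 237 ± 59.5 (SD, n = 4), a log2 difference of 1.49 (SE 0.29, exact permutation p = 0.0286, limma adjusted p = 0.00937). That exact p is the smallest that 70 assignments of the libraries allow.

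Cd68, a glycoprotein of lysosomes that is abundant in phagocytes, showed the largest difference of the markers tested. It is a short gene on chromosome 11 (69664213 to 69666153, minus strand) with an exonic length of 1257 bases. Its values were 280, 96.9, 155 and 171 in the controls and 725, 374, 494 and 621 in the libraries labelled knockout. The groups were separate, with replicate 1 the highest library of each group. It rose by 1.71 on the log2 scale (SE 0.30), a factor of 3.26 (limma adjusted p = 0.00687, exact permutation p = 0.0286).

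Csf1r, the receptor on which macrophages depend, was the most counted of the 10. It lies on chromosome 18 (61100598 to 61132149), where Hmgxb3 overlaps it on the opposite strand and Mir6983 on the same strand, and the use of strand in counting is not given in the sources used here. Its values were 792, 188, 396 and 629 in the controls and 2048, 839, 1068 and 1640 in the libraries labelled knockout. The groups were separate by a narrow margin, since control replicate 1 at 792 came close to knockout replicate 2 at 839. It rose by 1.58 on the log2 scale (SE 0.43, exact permutation p = 0.0286, limma adjusted p = 0.0262), and the call was lost without knockout replicate 1 (limma adjusted p = 0.0660) or knockout replicate 4 (0.0757).

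**Figure D2:**
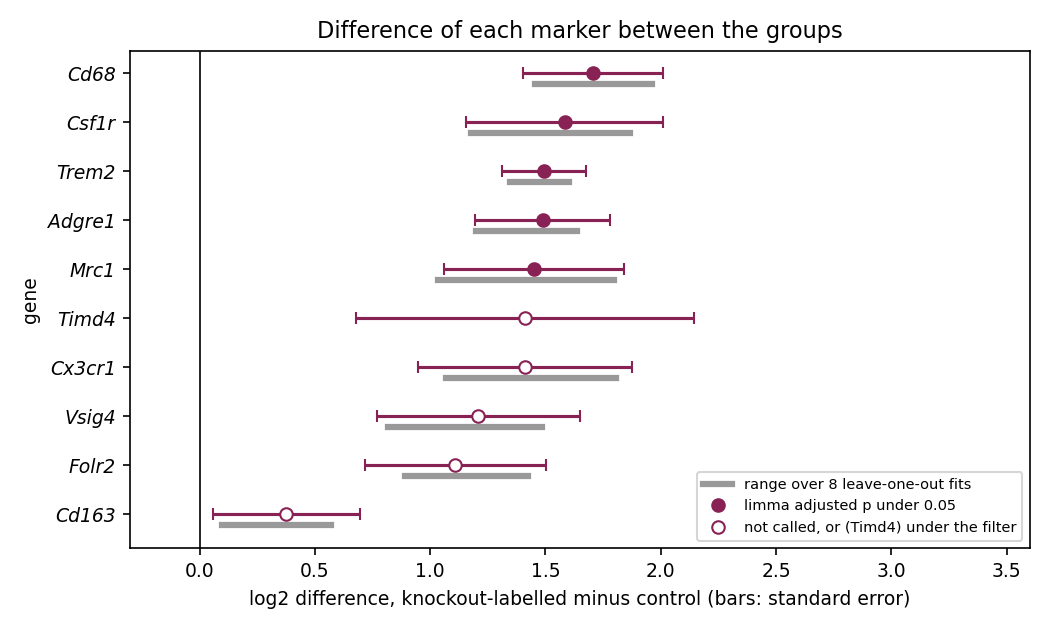
Log2 difference of each marker between libraries labelled knockout and control libraries, with its standard error; grey bars span the 8 fits that each left out 1 library, and Timd4 is from the fit with no filter on low values. The 5 filled points, from 1.45 for Mrc1 to 1.71 for Cd68, passed the test, and Cd163 lies lowest at 0.38.

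Trem2, a lipid-sensing receptor of lining macrophages that is also found on osteoclast precursors, was the steadiest of the markers. It lies on chromosome 17 (48346401 to 48354147), free of overlapping genes. Its values were 77.9, 106, 124 and 123 in the controls and 239, 297, 348 and 329 in the libraries labelled knockout. The lowest library labelled knockout stood far above the highest control, and the spread within each group was small. The log2 difference was 1.49 (SE 0.18, the smallest of the 9 tested markers; limma adjusted p = 0.00397, exact permutation p = 0.0286), and the call held in each of the 8 fits that left out 1 library.

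Mrc1 encodes the mannose receptor CD206, an endocytic receptor of tissue macrophages that lymphatic and sinusoidal endothelium also carry. It spans 14229392 to 14332057 on chromosome 2 and hosts the microRNA gene Mir511 on its own strand. Its values were 127, 51.5, 138 and 256 in the controls and 386, 277, 322 and 383 in the libraries labelled knockout. Control replicate 4, the highest control, lay just under knockout replicate 2, so that the groups were separate but adjoining. It rose by 1.45 on the log2 scale (SE 0.39, exact permutation p = 0.0286, limma adjusted p = 0.0260), and without knockout replicate 1 or 4 the limma adjusted p was 0.0612 and 0.0730. Of 5 lymphatic endothelial genes 0 were called by limma, edgeR or DESeq2 (0 at an unadjusted p under 0.05), and their summed value was 295 to 379 in the controls and 339 to 452 in the libraries labelled knockout.

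The promoter windows of the markers were read for letters that macrophage factors are known to bind. RefSeq windows on GRCm38.p6, the same assembly as mm10, were matched for 8 of the 10 markers. Each runs from 250 bases before to 50 bases after an annotated start, and none was matched for Adgre1 or Csf1r. Printed 5′ to 3′ on the gene's strand are the called genes Cd68 (chr11:69666121-69666420, minus strand), Trem2 (chr17:48346151-48346450, plus strand) and Mrc1 (chr2:14229164-14229463, plus strand), with Cd163 (chr6:124304401-124304700, plus strand) beside them as the marker with the smallest difference. Capitals mark matches to GAGGAAG, the core bound by the macrophage factor PU.1, or to TGACTCA, the AP-1 site, on either strand.
Cd68: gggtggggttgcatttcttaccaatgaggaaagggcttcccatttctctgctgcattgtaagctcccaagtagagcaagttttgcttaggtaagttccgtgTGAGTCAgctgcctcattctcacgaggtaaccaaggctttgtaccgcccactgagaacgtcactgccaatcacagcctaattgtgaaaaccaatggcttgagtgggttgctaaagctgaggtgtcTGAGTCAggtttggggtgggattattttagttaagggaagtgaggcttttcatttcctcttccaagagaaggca
Trem2: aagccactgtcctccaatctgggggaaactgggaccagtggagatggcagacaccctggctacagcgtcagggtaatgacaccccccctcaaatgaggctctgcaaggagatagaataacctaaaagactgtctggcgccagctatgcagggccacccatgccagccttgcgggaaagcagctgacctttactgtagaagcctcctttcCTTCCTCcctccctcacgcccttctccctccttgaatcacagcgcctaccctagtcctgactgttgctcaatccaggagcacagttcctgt
Mrc1: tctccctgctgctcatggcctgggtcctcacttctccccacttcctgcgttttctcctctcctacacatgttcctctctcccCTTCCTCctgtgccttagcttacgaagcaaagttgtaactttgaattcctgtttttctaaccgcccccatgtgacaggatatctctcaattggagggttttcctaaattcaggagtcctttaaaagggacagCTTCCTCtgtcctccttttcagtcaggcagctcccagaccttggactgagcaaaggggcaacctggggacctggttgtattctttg
Cd163: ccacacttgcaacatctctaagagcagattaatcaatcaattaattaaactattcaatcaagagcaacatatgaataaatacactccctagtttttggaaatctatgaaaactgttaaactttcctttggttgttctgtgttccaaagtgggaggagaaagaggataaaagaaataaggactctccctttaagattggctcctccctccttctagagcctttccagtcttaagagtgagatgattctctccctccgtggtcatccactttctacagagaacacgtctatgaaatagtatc

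The Trem2 window held 1 match to GAGGAAG, on the minus strand and starting 41 bases before the annotated start. The Mrc1 window held 2, also on the minus strand, starting at -168 and -36. The Cd68 window held none of these but 2 matches to TGACTCA on the minus strand, at -149 and -24. No letters of either motif, or of CACGTG, the E-box of MITF and TFE factors, occurred in the Cd163 window. These are descriptions of letters, not sites. GAGGAAG occurred on either strand in 13.6% of the 32851 full-length promoter windows outside chromosome 18, TGACTCA in 5.2% and CACGTG in 7.15%. Among the 9 windows of the markers, GAGGAAG was found for 2 genes, TGACTCA for 2 (Cd68 and Folr2) and CACGTG for 0.

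Cx3cr1 and Vsig4, which with Trem2 mark the lining layer, had high values in 3 of the 4 libraries labelled knockout and not in the remaining one. Cx3cr1 is the receptor for fractalkine, and its values were 37.9, 16.2, 63.6 and 34.0 in the controls and 110, 115, 40.2 and 141 in the libraries labelled knockout. Vsig4, a receptor for complement C3 fragments, had 88.7, 38.4, 114 and 153 in the controls and 173, 249, 115 and 354 in the libraries labelled knockout. For both genes knockout replicate 3 fell inside the control range while the other 3 lay above every control. The log2 difference was 1.41 for Cx3cr1 (SE 0.46, exact permutation p = 0.0571, limma adjusted p = 0.0521) and 1.21 for Vsig4 (SE 0.44, exact permutation p = 0.0571, limma adjusted p = 0.0723).

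Without knockout replicate 3 both genes were called, Cx3cr1 at a difference of 1.80 (limma adjusted p = 0.0140) and Vsig4 at 1.48 (limma adjusted p = 0.0379). Cx3cr1 was also called without control replicate 3 (limma adjusted p = 0.0284), by edgeR (edgeR adjusted p = 0.0460) and by DESeq2 (DESeq2 adjusted p = 0.00807). Its limma adjusted p was 0.0494 with a pseudocount of 5, 0.0497 with a filter at 50 and 0.0417 under the scaling without muscle genes. Vsig4 was called by DESeq2 (DESeq2 adjusted p = 0.0189). These were the only calls: of 19 alternatives 7 called Cx3cr1 and 2 called Vsig4. Cx3cr1 was not called with quantile normalisation (limma adjusted p = 0.0890) or the replicate number as a block (limma adjusted p = 0.105). Over the fits that left out 1 library, the limma adjusted p reached 0.141 for Cx3cr1 and 0.187 for Vsig4. The annotated span of Cx3cr1 (chromosome 9, 119901616 to 120069879) overlaps 9 other genes, among them the muscle gene Xirp1 on the same strand. Whether their exons overlap was not checked, so any effect on the Cx3cr1 count is not known. No gene overlaps the span of Vsig4 (chromosome X, 96247203 to 96293438).

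Knockout replicate 3 stood apart in other macrophage genes too, which were picked after their values were seen, from a like ranking made for each of the 8 libraries. When the genes that reached 100 in that library were ranked by the ratio to the highest of the other 7, Arg1 came first, with 947 there and at most 16.2 elsewhere. Arg1 encodes arginase, an enzyme of macrophages exposed to interleukin 4. Rnase2a followed with 352 (at most 8.08 elsewhere), Retnla with 3507 (at most 90.9), Alox15 with 103 (at most 3.24) and Ccl17 with 104 (at most 7.70). The next in rank were Igha, an antibody gene, and Papln, and then Mgl2, a lectin of the same macrophages, at 330 (at most 111 elsewhere). Other libraries had leading genes of their own: in knockout replicate 1 they included the chemokine genes Cxcl13 at 101 (at most 14.1 elsewhere), Cxcl9 at 173 (at most 32.4) and Ccl8 at 272 (at most 61.6). Adgre1, Trem2 and Mrc1 were within or above the range of the other libraries labelled knockout in this library. The lining markers Cx3cr1 and Vsig4 were in the control range there, but so was Cd163 (117), which is not a lining marker. Trem2, itself a lining marker, was at its highest there (348), so the lining markers did not move as a set. This was a single library, and no test was made of it.

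**Figure D3:**
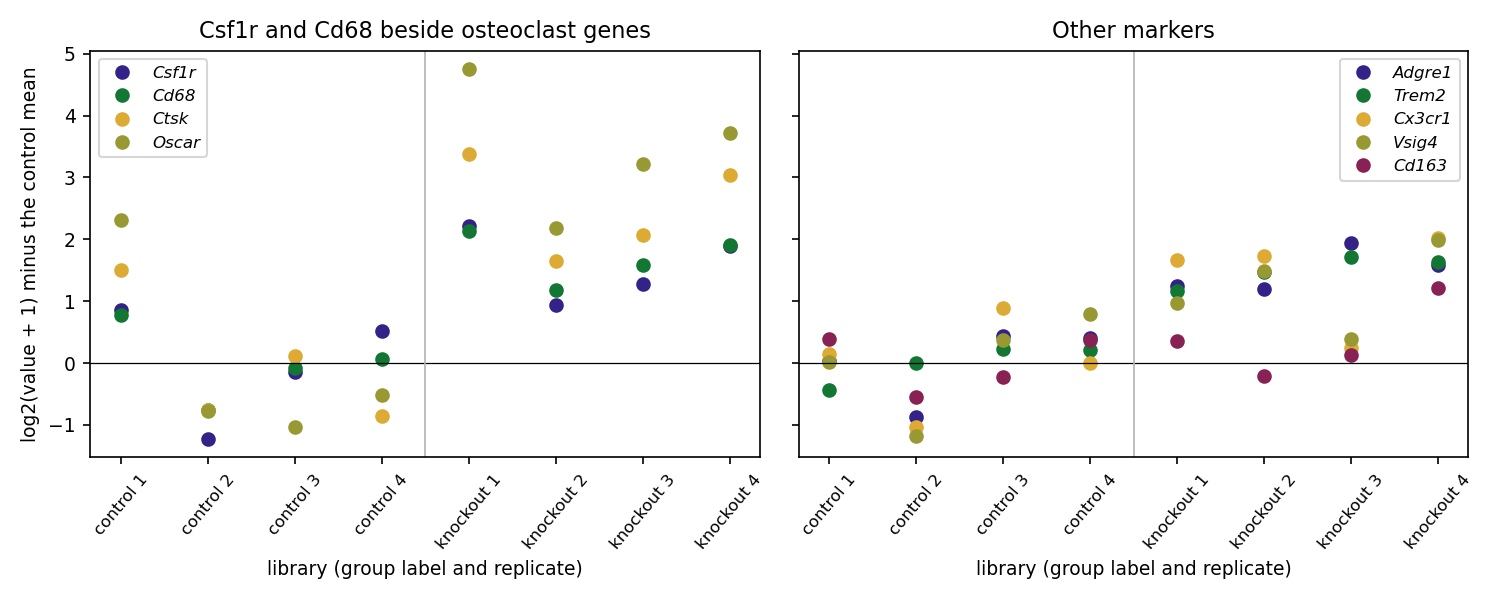
Log2(value + 1) of single genes in each library, minus the mean of the control libraries; the left panel sets Csf1r and Cd68 beside the osteoclast genes Ctsk and Oscar, and the right panel shows 5 other markers. Replicate 1 is the highest library of each group for all 4 genes on the left, while knockout replicate 3 is highest for Adgre1 and Trem2 and lowest in its group for Cx3cr1 and Vsig4.

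Folr2, a folate receptor of resident macrophages, was scarce and overlapped between the groups. It lies on chromosome 7 (101839988 to 101857194), overlapped on the opposite strand by the antisense gene Gm10602 and a pseudogene. Its values were 14.1, 12.1, 20.6 and 27.4 in the controls and 19.9, 39.3, 47.9 and 62.5 in the libraries labelled knockout. Knockout replicate 1 lay among the controls, although it was the highest of all libraries for Cd68 and Csf1r. The log2 difference was 1.11 (SE 0.39, exact permutation p = 0.0857, limma adjusted p = 0.0659), and without knockout replicate 1 it was 1.42 (limma adjusted p = 0.0298). Folr2 was also called by DESeq2 (DESeq2 adjusted p = 0.0251) and under the scaling without muscle genes (limma adjusted p = 0.0445). These 3 were the only calls among 18 alternatives, and without single libraries the limma adjusted p reached 0.176.

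Timd4, which encodes the phosphatidylserine receptor TIM4 of long-lived resident macrophages, was near the limit of detection (chromosome 11, 46810800 to 46844332). The 4 controls held 7, 1, 1 and 6 of its reads, and the libraries labelled knockout held 12, 3, 8 and 31. Of the libraries labelled knockout 3 lay above every control after normalisation, and they differed widely among themselves. In the fit with no filter the log2 difference was 1.41 (SE 0.73, exact permutation p = 0.143, limma adjusted p = 0.224).

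Cd163, the scavenger receptor for haptoglobin-bound haemoglobin, had the smallest difference of the 9 tested markers. It lies on chromosome 6 (124304656 to 124330527) with no overlapping gene. Its values were 141, 72.7, 91.6 and 139 in the controls and 138, 92.4, 117 and 250 in the libraries labelled knockout. In 3 of the 4 libraries labelled knockout Cd163 lay inside the control range, and knockout replicate 4 alone was above it. The log2 difference was 0.38 (SE 0.32, exact permutation p = 0.429, limma adjusted p = 0.416). Over the 8 fits that left out a library, the difference ran from 0.10 to 0.57 and was never called.

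Whether a marker moved differently from the others was examined by its ratio to Adgre1 within each library, since osteoclasts, which share Csf1r and Cd68, lack F4/80. The ratio of Cd163 to Adgre1 was 1.69, 1.64, 0.824 and 1.28 in the controls and 0.708, 0.491, 0.371 and 1.01 in the libraries labelled knockout. Of the libraries labelled knockout 3 fell under every control, and knockout replicate 4 fell between control replicates 3 and 4. The log2 ratio differed by -1.11 (SE 0.43, exact permutation p = 0.0571, limma adjusted p = 0.0134). All ratios share the variation of Adgre1 itself. The limma fit does not allow for this, so its p-values for ratios may be too small. Of all genes 80.6% were called lower in their ratio to Adgre1, a share with the same limit, and 72.7% were lower without overlap. The call is therefore not particular to Cd163. The call was lost without control replicate 1 (limma adjusted p = 0.0617) or knockout replicate 3 (0.0644).

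Against the other general markers the ratios of Cd163 were separate between the groups, as were those of many other genes. Its ratio to Csf1r was 0.178, 0.387, 0.231 and 0.221 in the controls and 0.0672, 0.110, 0.110 and 0.152 in the libraries labelled knockout. Its ratio to Cd68 was 0.502, 0.750, 0.590 and 0.814 in the controls and 0.190, 0.247, 0.238 and 0.403 in the libraries labelled knockout. Every library labelled knockout lay under every control for either ratio (exact permutation p = 0.0286 for each). Of all tested genes, 47.9% were separate and lower in their ratio to Csf1r and 69.4% in their ratio to Cd68, and limma called 68% and 86.1% lower. The log2 ratio differed by -1.21 against Csf1r (SE 0.61, limma adjusted p = 0.0646) and by -1.33 against Cd68 (SE 0.44, limma adjusted p = 0.00402). These limma p-values and called shares may also be off, since all ratios share the variation of the denominator gene.

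For the other 7 tested markers the log2 ratio to Adgre1 differed between the groups by -0.38 (Folr2) to 0.22 (Cd68), with standard errors of 0.41 to 0.54, and none of these was called by limma. With errors of this size, equal change was not shown. The ratio of Trem2 to Adgre1 was 1.39 ± 0.669 in the controls and 1.31 ± 0.202 in the libraries labelled knockout (SD, n = 4), and that of Mrc1 was 1.57 ± 0.550 and 1.51 ± 0.396.

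**Figure D4:**
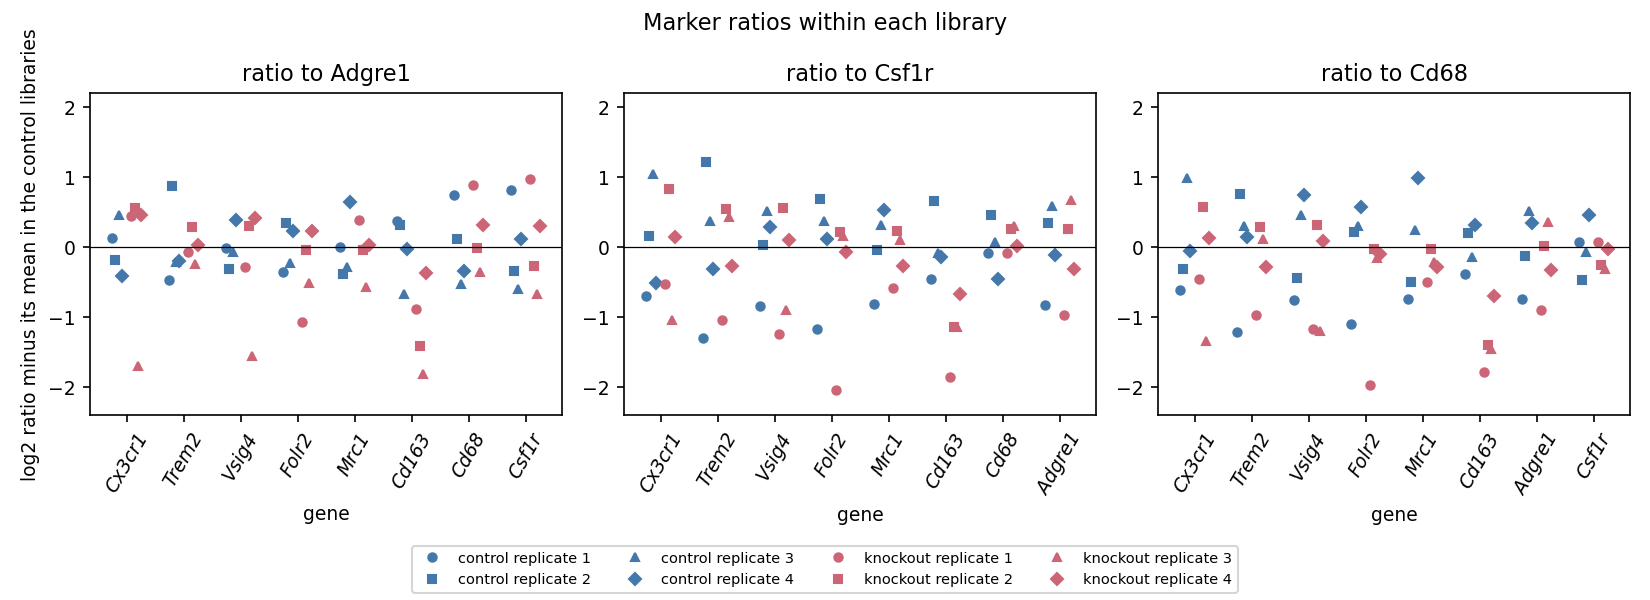
Log2 ratio of each marker to Adgre1, Csf1r or Cd68 in the same library, minus its mean over the control libraries, with 1 symbol per library; Timd4 is left out for its low counts. For Cd163 the libraries labelled knockout lie under the controls in the middle and right panels, and the Cx3cr1 and Vsig4 ratios to Adgre1 are lowest in knockout replicate 3.

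Levels of different genes were compared per kilobase of exon. Cd68 was the highest in both groups, at 140 ± 60.9 normalised reads per kilobase in the controls and 440 ± 121 in the libraries labelled knockout (SD, n = 4). Csf1r (86.8 and 242) and Vsig4 (66.4 and 150) followed, then Adgre1 (26.8 and 73.1), and Timd4 was last (1.85 and 5.81). Within single libraries Cd68 was first and Timd4 last in every library, and Csf1r and Vsig4 always held ranks 2 to 4. The ranks of Adgre1, Trem2, Mrc1 and Cd163 varied between libraries. Ranges over libraries leave out that the genes were measured in the same libraries. By range, each neighbouring pair in the controls overlapped except Cx3cr1 and Timd4. In the libraries labelled knockout only Mrc1, with 43.5 per kilobase in its lowest library, was clear in range of its lower neighbour, Folr2. Cd163 stood at 20.3 and 27.4.

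The ligands and adaptors of these receptors were examined as a list, of which 4 of 8 genes rose and 0 fell. The background was 11.6% of all tested genes called higher. The median log2 difference of the list was 0.74. C3, the complement protein whose fragments VSIG4 binds, had 535, 444, 472 and 459 in the controls and 1141, 1341, 1184 and 1274 in the libraries labelled knockout. Its groups were far apart (log2 difference 1.37, SE 0.09, limma adjusted p = 0.000554). Tyrobp, the signalling adaptor of TREM2, had 178, 59.6, 112 and 117 in the controls and 427, 248, 227 and 322 in the libraries labelled knockout. It rose by 1.44 (SE 0.31, limma adjusted p = 0.0128), close to the 1.49 of Trem2, while the other adaptor, Hcst, had a difference of 1.67 at low counts (limma adjusted p = 0.0755).

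Of the ligands of CSF1R, Csf1 passed the test and Il34 did not. Csf1 rose from 358 ± 154 to 650 ± 143 (SD, n = 4; log2 difference 0.92, SE 0.27, limma adjusted p = 0.0349), although control replicate 1 at 579 lay above knockout replicate 3 at 471. Il34 stood at 105 ± 21.4 in the controls and 129 ± 36.0 in the libraries labelled knockout (log2 difference 0.27, limma adjusted p = 0.395). The difference between these ligands was not tested. Cx3cl1, the fractalkine bound by CX3CR1, rose from 82.8 to 107 in the controls to 126 to 168 in the libraries labelled knockout (log2 difference 0.55, limma adjusted p = 0.0267). Of the proteins tied to CD163, Hp (haptoglobin) had 285 ± 160 in the controls and 273 ± 170 in the libraries labelled knockout (limma adjusted p = 0.998). Tnfsf12 (TWEAK) had a log2 difference of 0.33 (limma adjusted p = 0.260).

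Most of the general macrophage genes outside the 10 rose. Of 12 tested genes 9 rose and 0 fell, against the background of 11.6% higher, and their median difference was 1.15. C1qb, a subunit of complement C1q made by macrophages, rose from 427 ± 117 to 1011 ± 88.7 (log2 difference 1.28, limma adjusted p = 0.00399). C1qa (1.18, limma adjusted p = 0.00707) and Cd14, a lipopolysaccharide co-receptor (1.17, limma adjusted p = 0.00677), were also separate between the groups.

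Of the macrophage transcription factors 4 of 9 rose and 0 fell (median 0.59), against 11.6% of all tested genes called higher. Spi1, which encodes PU.1, had 220, 65.6, 114 and 160 in the controls and 583, 313, 437 and 472 in the libraries labelled knockout. It rose by 1.78 (SE 0.33, limma adjusted p = 0.00795), and replicate 1 was again the highest library of each group, as for Cd68 and Csf1r. Runx1, a factor of many blood cells and of skeletal tissue, rose by 1.40 (limma adjusted p = 0.00911).

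In the list built around the TIM4, LYVE1 and FOLR2 type of resident macrophage, 4 of 15 genes rose, 1 fell and 10 were not called (median 0.60), against a background of 11.6% called in each direction. Fcrls, an Fc receptor-like gene of resident macrophages, rose by 1.69 (limma adjusted p = 0.0130), with 32.4 to 61.7 in the controls and 62.8 to 208 in the libraries labelled knockout. Gas6, a bridging ligand for dying cells that fibroblasts and vessels also make, rose by 0.56 (limma adjusted p = 0.00867). Maf, a factor of resident macrophages that is also used in muscle and cartilage, fell by 0.51 (limma adjusted p = 0.00621).

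In the list of lining macrophage genes 2 of 7 rose and 0 fell (median 0.44), a small count beside the background of 11.6% in each direction. They were Fat4 (1.65, limma adjusted p = 0.00456) and Vangl2 (1.05, limma adjusted p = 0.0455), both genes of cell polarity that fibroblasts also use. In the list for interstitial synovial macrophages 0 of 6 genes were called by limma (2 at an unadjusted p under 0.05, 1 called by edgeR and 2 by DESeq2), and the median was 1.73. Retnla, named after its values were seen, reached its mean of 934 through knockout replicate 3 alone, and the other libraries labelled knockout had 70.8 to 81.0.

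Among lipid-handling genes linked to TREM2, 5 of 9 rose and 1 fell (median 0.60), against 11.6% of all tested genes called in each direction. Gpnmb, a lysosomal glycoprotein also made by osteoclasts, rose from 113 ± 23.9 to 381 ± 85.2 (log2 difference 1.74, limma adjusted p = 0.00397). Ms4a7 rose by 1.51 (limma adjusted p = 0.00897) and Lgals3, the galectin-3 gene, by 1.23 (limma adjusted p = 0.00978). The single fall, in Lpl, was by 0.69 (limma adjusted p = 0.0246); it was picked after its value was seen, and Lpl is abundant in muscle and fat.

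**Figure D5:**
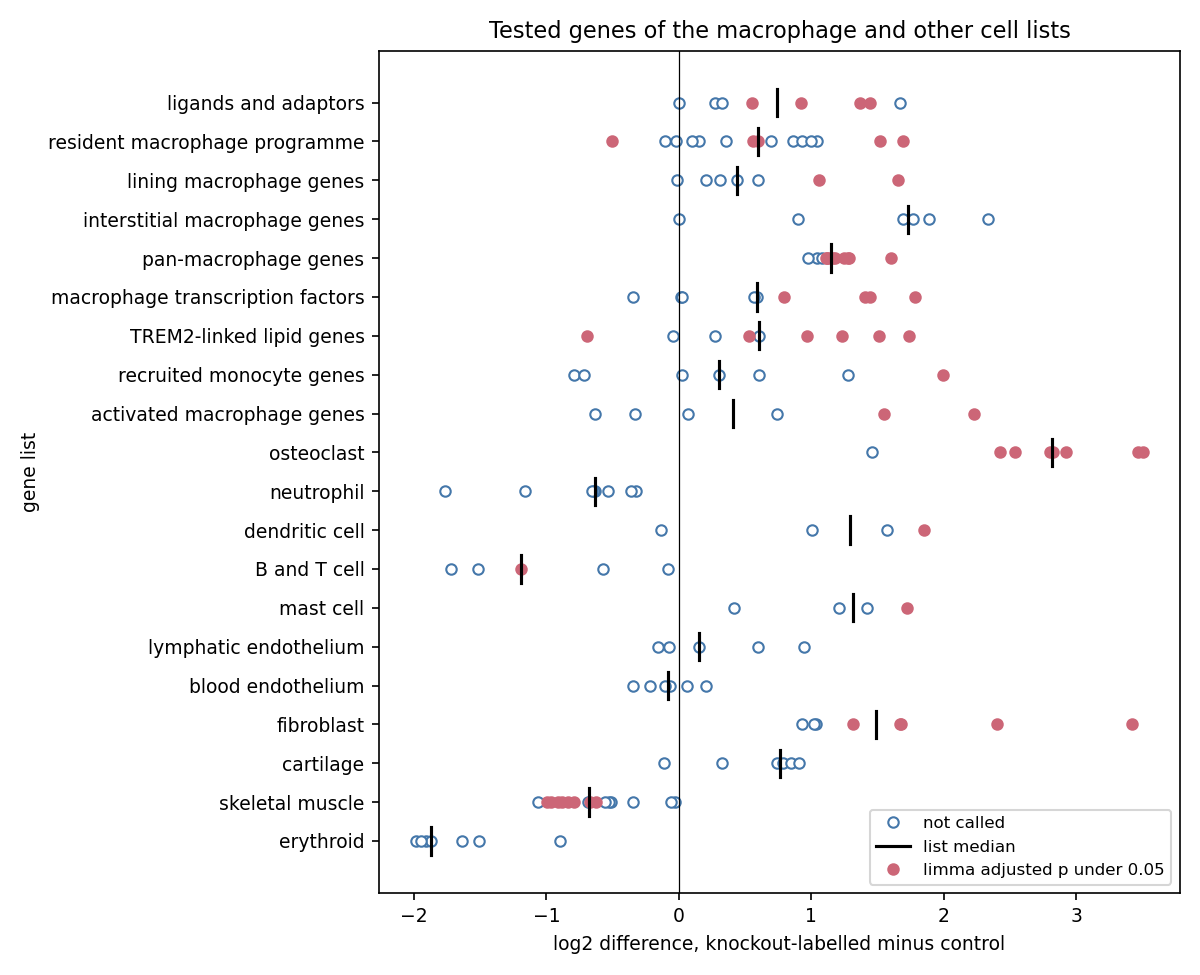
Log2 difference between libraries labelled knockout and control libraries for each tested gene of 20 lists, filled where the limma adjusted p was under 0.05, with a bar at the list median. The pan-macrophage genes lie close together around a median of 1.15, and the osteoclast genes lie farther out, around 2.81.

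Markers of other cells differed between the same groups. The background was again 11.6% of all tested genes called higher by limma. Of 8 osteoclast genes 7 rose by limma, while edgeR and DESeq2 called 4 each, and the list's summed value was 1868 to 14065 in the controls and 10270 to 39329 in the libraries labelled knockout, with 0 genes at 0 in any library. Ctsk, the bone collagenase of osteoclasts, had 4857, 1007, 1857 and 942 in the controls and 17744, 5385, 7194 and 14037 in the libraries labelled knockout. Oscar rose by 3.47 (limma adjusted p = 0.0127). Dcstamp, a gene needed for the fusion of osteoclast precursor cells, rose by 3.51 (limma adjusted p = 0.0189). For both genes, however, control replicate 1 lay above knockout replicate 2. For Ctsk as for Csf1r and Cd68, control replicate 1 was the highest control, and knockout replicates 1 and 4 were the highest of their group. The part of osteoclasts in the rise of Csf1r, Cd68 and Trem2 was not tested.

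Of the recruited monocyte genes 1 of 7 tested rose, a share near the 11.6% of all tested genes called higher. It was Ccr2, the chemokine receptor of inflammatory monocytes, which rose from 36.3 ± 15.5 to 142 ± 38.2 (log2 difference 1.99, limma adjusted p = 0.00556). The list as a whole had a median of 0.30 and summed values of 607 to 1016 in the controls and 1055 to 2018 in the libraries labelled knockout. Fibroblast genes rose for 5 of 8, and their summed share of the libraries was 0.263% to 0.801% in the controls and 1.18% to 2.05% in the libraries labelled knockout. Postn (3.42), Pdgfra (1.31) and Col3a1 (2.40) had the smallest p-values (limma adjusted p = 0.00397, 0.0105 and 0.0167).

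Among the other lists, the erythroid genes had the lowest median, -1.87, with summed values of 14322 to 83804 in the controls and 3787 to 37494 in the libraries labelled knockout. Limma called 0 of the 7 (5 at an unadjusted p under 0.05, 0 by edgeR and 0 by DESeq2). Neutrophil genes had a median of -0.64, with summed values of 1389 to 5671 and 1113 to 2707, and limma called 0 of 8 (1 at an unadjusted p under 0.05, 0 by edgeR and 0 by DESeq2). Of 16 skeletal muscle genes 8 fell and 0 rose (median -0.68), against 11.6% of all tested genes called lower. Of 5 tested B and T cell genes 1 fell, Cd3e, by 1.19 (limma adjusted p = 0.0377). Blood endothelial genes had a median of -0.08, and limma, edgeR and DESeq2 called 0 of 6 (0 at an unadjusted p under 0.05).

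Of 4 tested dendritic cell genes 1 rose, the integrin gene Itgax (1.85, limma adjusted p = 0.00784), which macrophages also express and which was highest in knockout replicate 3 (187). Of 4 tested mast cell genes 1 rose, the protease gene Mcpt4 (1.72, limma adjusted p = 0.0293). Of 6 tested genes of activated macrophages 2 rose, Slamf7 (2.23, limma adjusted p = 0.00875) and the co-stimulatory ligand gene Cd86 (1.55, limma adjusted p = 0.0155). Limma called 11.6% of all tested genes higher, and these are small counts beside that share. The part of these cells in the marker values was not tested.

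The genes whose pattern was most like each marker were sought by the Pearson correlation of deviations from the group means, over 8 libraries and 11646 genes with a mean of at least 50. The 3 closest genes to each of the 9 tested markers were 27 different genes, with correlations of 0.955 to 0.994, and 0 of them were markers from the 10. The closest was Phf21a for Cd68 (0.984), Ncbp3 for Csf1r (0.988), Duox1 for Trem2 (0.993) and Prkcd for Adgre1 (0.981). It was Trim44 for Mrc1 (0.973), Arap1 for Cd163 (0.9765) and the complement receptor gene C5ar1 for Folr2 (0.962). Ranked below the closest were Dok3 (0.981) and Lcp2 (0.981) for Cd68, signalling adaptors of blood cells. For Csf1r they were Lfng (0.988) and the blood cell gene Vav1 (0.986). They were Abcd3 and Gars for Trem2, Fbxl18 and Aatf for Adgre1, Cspp1 and Taok3 for Mrc1, and Ints6 and Mnt for Cd163. For Folr2 they were Saysd1 and Nrtn, for Cx3cr1 Pgrmc1 and Wac, and for Vsig4 Radil and Flna. With the group difference left in, Abcd3 (-0.73) and Gars (-0.88) ran against Trem2, and Fbxl18 (-0.36) and Aatf (-0.14) against Adgre1. For Cx3cr1 the closest was Colec12 (0.994), a scavenger receptor gene, and for Vsig4 Nubp1 (0.991). Correlations this high among so many genes and so few libraries are a description of these libraries. With the group difference left in, 8 of the 27 genes were again among the closest 3.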

How the data were processed

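The deposited table holds the authors' normalised counts, a signal per gene and library. Per the submitters' processing notes, reads were aligned to mm10 with HISAT2 and counted with featureCounts, and the series' design text names DESeq2; versions and strand setting were not given in the sources used here. Each library's values were whole multiples of 1 read's worth for 100% of values (tolerance 0.01 reads), so reads were recovered, 13991000 to 17411617 a library. No sample column was left unmapped (0).

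Genes that reached a value of 10 in 4 or more libraries (14949 of 20681) were tested with limma 3.58.1 in R 4.3.3 on log2(value + 1), a scale that understates changes of low genes, with Benjamini-Hochberg adjustment over all of them and a threshold of 0.05. Single genes also had an exact two-sided permutation test. A count test on recovered reads used edgeR 4.0.16 (1690 genes called higher) and DESeq2 1.42.0 (2140). Ratios to Adgre1 were fitted the same way, though the variation of Adgre1 is then shared by all genes, which this fit does not allow for. The fits were tested on simulated data. Replicates of a group differed by 23.5 to 59.7 times sampling noise (chi-square per degree of freedom), so none was a copy.

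The members and the 20 gene lists were chosen with earlier results of these data known. Named genes were all 10 markers, at most 3 called genes of smallest p per list, all ligands and adaptors, and the 3 genes most like each marker; exceptions are marked in the text, and 1 gene that the rule names is not reported here. Alternatives changed the pseudocount, scaling, filter, tool, covariates, ratio denominator and libraries. Lengths and positions came from GENCODE M21, and promoter windows from RefSeq.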

Additional observations from a re-analysis of the deposited data

Results flagged for a closer look

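In 38 groups of 4 libraries, marker values and ratios were checked for a library far from the other 3 by Dixon's gap test at its 95% level, which chance passes in about 1 of 20 groups. A total of 2 stood out. The ratio of Cx3cr1 to Adgre1 was 0.127 in knockout replicate 3, against 0.564 to 0.614 in the other libraries labelled knockout. The ratio of Trem2 to Adgre1 was 2.39 in control replicate 2, against 0.935 to 1.13 in the other controls, in the library with the lowest Adgre1 value of the 8 (44.4).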

How the results depend on the processing

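The count of called markers was 5, and was 8 with DESeq2, 0 with the muscle score as a covariate (1 at an unadjusted p under 0.05) and 3 to 7 when 1 library was left out (3 without knockout replicate 4, 7 without knockout replicate 3). The count over all genes was 3461, and was 0 with the muscle covariate and 1751 to 3841 when 1 library was left out, the lowest without knockout replicate 4, then 1887 without control 2 and 2194 without control 4. With the muscle covariate the differences of Cx3cr1 (-0.23), Vsig4 (-0.92), Folr2 (-0.25) and Cd163 (-1.15) changed sign, with limma adjusted p of 0.964 to 0.990, and those of Trem2 (1.35), Cd68 (1.09), Adgre1 (1.02), Mrc1 (0.53) and Csf1r (0.53) kept theirs without a call. The muscle share of the libraries did not overlap between the groups (15.6% to 15.9% against 9.45% to 12.7%), and the cause was not tested.

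The replicate numbers are not stated to pair the samples. Same-numbered libraries had correlated deviations of 0.213, -0.12, -0.233 and -0.063 for numbers 1 to 4. Only control replicate 1 correlated most with the knockout library of its own number. These values cannot tell whether same-numbered libraries shared a batch or litter. With the replicate number as a block, 5 markers and 2018 genes were called.

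Of the ratios to Adgre1 1 was called, and 0 were with Csf1r as the denominator. Leaving out 1 library gave 0 to 1 calls. With Csf1r as the denominator the Trem2 ratio differed by -0.0886, and with Cd68 as the denominator the Trem2 and Csf1r ratios differed by -0.21 and -0.12. Leaving out 1 library, the ratio to Adgre1 ranged from -0.28 to 0.47 for Cx3cr1, -0.15 to 0.30 for Trem2, -0.51 to 0.14 for Vsig4, -0.18 to 0.18 for Mrc1, -0.0102 to 0.47 for Cd68 and -0.20 to 0.37 for Csf1r, so the sign of each was not settled. It ranged from -0.57 to -0.15 for Folr2 and from -1.36 to -0.88 for Cd163. Of the 27 genes most like a marker, 8 were found again with the group difference left in. Timd4 and Folr2 rest on few reads, 1 to 31 and 12 to 71 a library.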
